A study of Mus musculus with 20 samples.

Results

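The MHC class II genes described here are Cd74, H2-Aa, H2-Ab1, H2-Eb1 and Ciita, taken by gene symbol with no threshold on a measured value, though earlier results of these data were known when the group was chosen. They are 5 of 21949 genes with messenger RNA values in cerebral cortex of mice, and the value of a gene is the sum over its transcripts. Total RNA was sequenced from cortex of PS19 mice (Tg(Prnp-MAPT*P301S)PS19Vle, TG), whose human tau transgene with the P301S change is driven by the prion protein promoter, and of wild-type mice (WT). All mice had the strain (C57BL/6 x C3H)F1. The groups are TG10M (PS19, 10 months old), WT10M (wild type, 10 months), TG03M (PS19, 3 months) and WT03M (wild type, 3 months), with 5 libraries each. The labels give neither sex nor batch, and they do not say that each replicate is a separate animal, so a p-value measures the spread between these samples, which may be technical. PS19 is a single transgenic line, and its promoter is active in many cell types.

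MHC class II molecules are pairs of an alpha and a beta chain that carry peptides from the endosomes of antigen-presenting cells to the surface, where CD4+ T cells read them. H2-Aa and H2-Ab1 encode the alpha and beta chains of I-A, and H2-Eb1 encodes the beta chain of I-E. Cd74 is the invariant chain, which fills the groove of newly made class II pairs and leads them to endosomes, and Ciita is the coactivator that class II promoters need. In the brain, class II is known from border macrophages and from microglia that have left their resting state.

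On GRCm38, H2-Ab1 (ENSMUSG00000073421; chromosome 17, 34257689 to 34269419, plus strand), H2-Aa (ENSMUSG00000036594; chromosome 17, 34282744 to 34287823, minus strand) and H2-Eb1 (ENSMUSG00000060586; chromosome 17, 34305867 to 34316674, plus strand) lie within 58986 bases of each other. Ciita (ENSMUSG00000022504) is on chromosome 16, 10480059 to 10528418, plus strand. Class II promoters are known for an X box and a Y box, which bind RFX and NF-Y and on which Ciita is recruited. RefSeq promoters on GRCm38.p6 were found for 2 of the 5 members, H2-Aa and H2-Eb1, and for 10 of 12 symbols of class II accessory genes. The 120 bases before the start of H2-Aa (chr17:34287824-34287943, minus strand), of H2-Eb1 (chr17:34305747-34305866, plus strand) and of the accessory gene H2-Oa (chr17:34092259-34092378, plus strand) are shown because they share this arrangement. Capitals mark GCAAC, a core of the X box, and CTGATTGG, which holds the inverted CCAAT of the Y box.
H2-Aa: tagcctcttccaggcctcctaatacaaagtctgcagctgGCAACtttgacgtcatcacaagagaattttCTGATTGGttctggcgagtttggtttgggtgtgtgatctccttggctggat
H2-Eb1: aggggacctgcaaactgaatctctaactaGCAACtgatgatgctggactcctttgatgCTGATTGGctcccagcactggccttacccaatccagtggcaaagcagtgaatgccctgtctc
H2-Oa: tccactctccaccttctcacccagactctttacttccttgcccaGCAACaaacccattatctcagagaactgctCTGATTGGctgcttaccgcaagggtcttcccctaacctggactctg
In H2-Aa the first base of GCAAC lies at -81 and that of CTGATTGG at -51 from the start, with 25 bases between the motifs. The positions are -91 and -62 in H2-Eb1, with 24 bases between, and -76 and -46 in H2-Oa, with 25 bases between. Over all 32851 RefSeq promoters, which hold 250 bases before and 50 after a start, GCAAC occurred on either strand in 35.2% and CTGATTGG in 4.1%. GCAAC followed after 20 to 30 bases by CTGATTGG occurred in 22 (0.067%), among them H2-Aa, H2-Eb1, H2-Oa and H2-Eb2. The 2 motifs do not overlap each other. Their letters were taken from the H2-Aa and H2-Eb1 sequences, so these matches are a description.

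The deposited values are FPKM, fragments scaled to transcript length and library, and their steps give a depth of 22.5 to 30 M (mega) fragments in a library. At that depth a library held about 51.8 to 322 fragments of Cd74, 21.0 to 186 of H2-Aa, 24.4 to 176 of H2-Ab1, 26.4 to 126 of H2-Eb1 and 11.4 to 28.6 of Ciita. Prnp, part of whose sequence the transgene carries, ran from 736 to 841 FPKM in TG10M, 412 to 528 in WT10M, 695 to 812 in TG03M and 426 to 458 in WT03M, so the genotype labels held in all 20 libraries. Markers of cortical neurons were high in each group, with summed levels of 2161 to 2351 FPKM in TG10M, 2174 to 2414 in WT10M, 2266 to 2531 in TG03M and 2237 to 2510 in WT03M for 6 genes. The libraries TG10M replicates 1 and 5 and WT10M replicate 5 stood apart on the first principal component (23.9% of the variance), with scores of 26.2 to 30.9 against -12.1 to 2.52 in the 17 others. Those 3 libraries and TG03M replicates 2 to 5 also had 13.9 to 20.5 FPKM of the chaperone gene Hsp90aa1, against 532 to 687 FPKM in the 13 other libraries. At 3 months 4 of 5 TG libraries and 0 of 5 WT libraries were low in Hsp90aa1, so genotype and this feature are largely confounded there, with TG03M replicate 1 (560 FPKM) as the exception. Y-linked genes were detected in all 20 libraries, with summed levels of 45.1 to 68.1 FPKM for 4 genes.

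Class II RNA was higher in the cortex of 10-month PS19 mice than in that of their wild-type counterparts. Cd74, H2-Ab1 and H2-Eb1 rose, by 1.04, 0.97 and 0.78 on the log2(FPKM + 0.5) scale, while H2-Aa, at 0.64, did not pass the test and Ciita was at -0.05. The test was limma on 13722 genes with a mean of at least 0.5 FPKM, with Benjamini-Hochberg adjustment over all of them. Of the 5 members, 4 passed the filter on low values, and 3 of these 4 rose, beside 0.583% of all genes tested. On this scale a change in a gene of low level appears smaller than it is. In bulk tissue more cells of a type and more RNA per cell cannot be told apart.

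Cd74 had 8.81, 6.72, 6.50, 7.23 and 4.03 FPKM in TG10M replicates 1 to 5, against 3.17, 3.53, 3.04, 2.05 and 2.89 FPKM in WT10M replicates 1 to 5. Every TG10M library lay above every WT10M library, with TG10M replicate 5 nearest to them. The difference of 1.04 (SE 0.18, 95% interval 0.66 to 1.41, adjusted p = 0.00782, limma) is 2.05-fold on that scale and was the 9th largest rise of the genes tested. H2-Ab1 had 5.05, 2.98, 2.32, 2.60 and 2.94 FPKM in the TG10M libraries, against 1.33, 1.59, 1.33, 0.866 and 1.60 FPKM in the WT10M libraries. Its groups were apart as well, and TG10M replicate 1 was far above its group. H2-Ab1 rose by 0.97 (SE 0.16, 95% interval 0.64 to 1.30, adjusted p = 0.00410, limma), which is 1.96-fold.

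H2-Eb1 had 3.73, 2.97, 2.68, 2.32 and 2.43 FPKM in the TG10M libraries, against 1.60, 1.55, 1.25, 1.11 and 1.65 FPKM in the WT10M libraries. Again no library of one group reached the other, and replicate 1 was the highest of TG10M. H2-Eb1 rose by 0.78 (SE 0.14, 95% interval 0.49 to 1.06, adjusted p = 0.00803, limma), which is 1.71-fold. H2-Aa had 5.75, 3.25, 1.95, 1.70 and 2.88 FPKM in the TG10M libraries, against 1.41, 1.78, 1.80, 1.04 and 2.49 FPKM in the WT10M libraries. Here the groups overlapped, since WT10M replicate 5 lay above TG10M replicates 3 and 4. The H2-Aa difference of 0.64 (SE 0.22, 95% interval 0.18 to 1.10) had an adjusted p of 0.193 in limma. Groups without overlap were found for 3 of the 4 tested members, beside 1.65% of all genes tested.

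**Figure D1:**
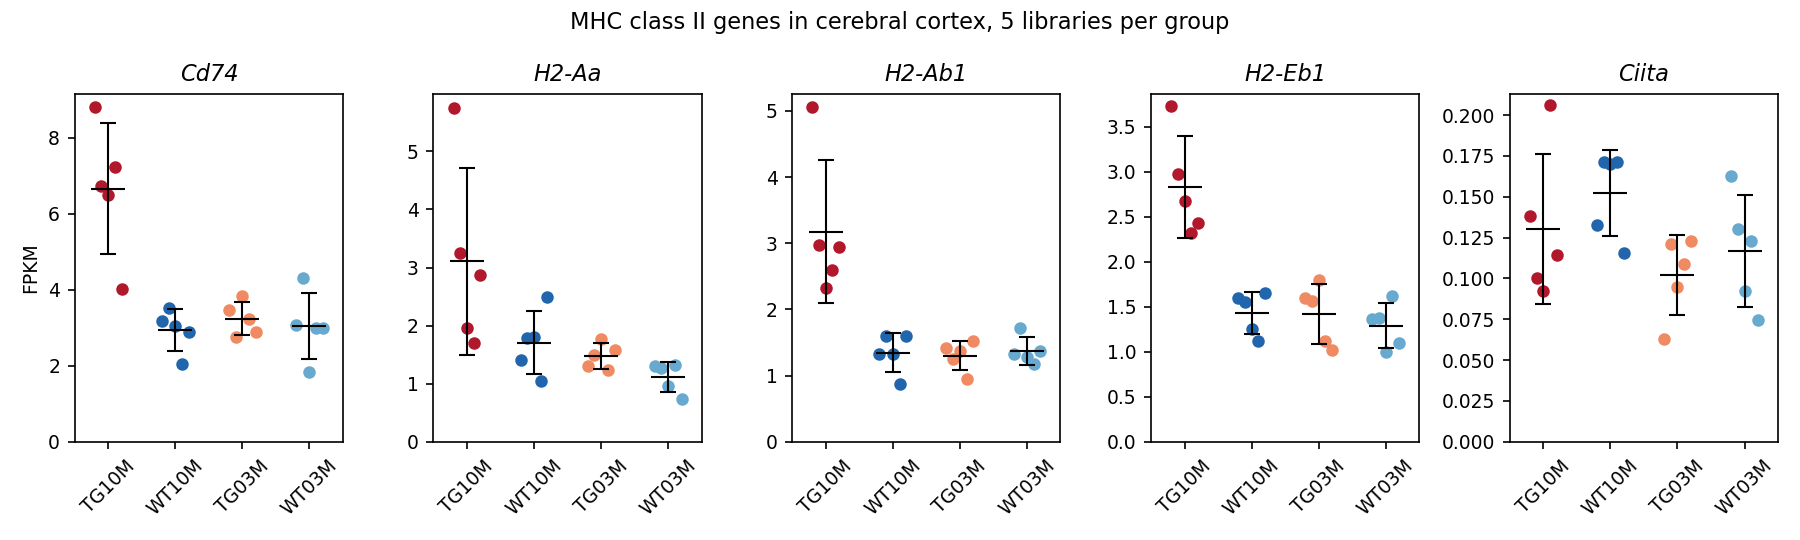
FPKM (vertical axis, linear, from 0) of the 5 class II genes in the groups TG10M, WT10M, TG03M and WT03M. Each point is 1 library, the horizontal line is the mean and the bars are the SD of 5 libraries. For Cd74, H2-Ab1 and H2-Eb1 every TG10M library lies above every library of WT10M and TG03M, and for H2-Aa and Ciita the groups overlap.

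The libraries that stood apart did not carry these differences alone. Between the 3 TG10M and the 4 WT10M other libraries the differences were 1.11 for Cd74, 0.83 for H2-Ab1, 0.75 for H2-Eb1 and 0.46 for H2-Aa. Between the 2 TG10M libraries and the WT10M library that stood apart they were 0.94, 1.06, 0.71 and 0.62 in the same order of genes. The calls of Cd74, H2-Ab1 and H2-Eb1 held when each 10-month library was left out in turn and when all 3 were left out. They did not hold when only the 10 libraries of TG10M and WT10M were fitted: the 3 differences were unchanged, but adjusted p was 0.0730 for Cd74, 0.0961 for H2-Ab1 and 0.0508 for H2-Eb1, with 0 members called. H2-Aa passed (adjusted p = 0.0358) only where WT10M replicate 5 was left out, a fit in which 1600 genes were called.

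Ciita, the coactivator, was far lower than the genes it serves. It had 0.138, 0.10, 0.0924, 0.206 and 0.114 FPKM in the TG10M libraries, against 0.133, 0.171, 0.170, 0.171 and 0.116 FPKM in the WT10M libraries. The groups overlapped, with the highest and the lowest library of the 2 groups both in TG10M. Its mean was under the filter, so it was tested alone, with an exact two-sided permutation test of 5 against 5 libraries whose smallest possible p is 0.00794. The difference at 10 months was -0.05 (SE 0.05, exact permutation p = 0.341). The median library held about 18.8 fragments of Ciita, and its FPKM is small beside the pseudocount of 0.5, so this difference understates any change in level.

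At 3 months no member passed in limma, beside 0.299% of all genes tested, and 0 of 4 had an unadjusted p under 0.05. That share is 41 genes, a count that ran from 11 (without TG03M replicate 5 or WT03M replicate 4) to 108 (without TG03M replicate 1) with 1 library left out. Cd74 had 3.48, 2.76, 3.83, 3.24 and 2.88 FPKM in TG03M, against 3.07, 4.31, 1.83, 3.00 and 2.98 FPKM in WT03M, and the WT03M libraries spanned all those of TG03M. The Cd74 difference was 0.11 (95% interval -0.27 to 0.48). H2-Ab1 had 1.42, 1.25, 1.37, 0.943 and 1.53 FPKM in TG03M, against 1.32, 1.72, 1.28, 1.17 and 1.38 FPKM in WT03M, a difference of -0.06 (95% interval -0.38 to 0.27). H2-Eb1 had 1.60, 1.56, 1.80, 1.12 and 1.02 FPKM in TG03M, against 1.36, 1.38, 0.998, 1.62 and 1.09 FPKM in WT03M, a difference of 0.10 (95% interval -0.19 to 0.38). In both genes the groups overlapped over most of their range. H2-Aa had 1.30, 1.5, 1.77, 1.23 and 1.58 FPKM in TG03M, against 1.30, 1.27, 0.961, 1.32 and 0.729 FPKM in WT03M. Its difference of 0.30 (95% interval -0.16 to 0.76, adjusted p = 0.671, limma) was the largest of the 4 at this age. Ciita had 0.0631, 0.121, 0.0950, 0.109 and 0.123 FPKM in TG03M, against 0.163, 0.130, 0.0924, 0.123 and 0.0744 FPKM in WT03M. Its groups overlapped, with a difference of -0.03 (exact permutation p = 0.468).

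With age, class II RNA rose in PS19 cortex. Cd74 averaged 6.66 ± 1.72 FPKM in TG10M and 3.24 ± 0.438 FPKM in TG03M (SD, n = 5 each) and rose by 0.91 (SE 0.18, adjusted p = 0.0173, limma). H2-Ab1 averaged 3.18 ± 1.08 FPKM in TG10M and 1.30 ± 0.225 FPKM in TG03M and rose by 0.996 (SE 0.16, adjusted p = 0.00263, limma). H2-Eb1 averaged 2.83 ± 0.565 FPKM in TG10M and 1.42 ± 0.333 FPKM in TG03M and rose by 0.80 (SE 0.14, adjusted p = 0.00577, limma). In each of these 3 genes all TG10M libraries lay above all TG03M libraries, which holds for 1.84% of the genes tested. H2-Aa averaged 3.10 ± 1.61 FPKM in TG10M and 1.48 ± 0.219 FPKM in TG03M, a difference of 0.77 (adjusted p = 0.103, limma) with overlap. Of all genes tested, 0.641% rose in this comparison. The call of Cd74 ended without TG10M replicate 1 (adjusted p = 0.0680), TG03M replicate 2 (0.0513) or TG03M replicate 5 (0.0529). Genotype at 10 months and age in PS19 mice share the TG10M libraries, so the 2 comparisons are not separate evidence.

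In wild-type cortex no member was called with age in limma, beside 0.0656% of all genes tested, and 0 of 4 had an unadjusted p under 0.05. That share is 9 genes, and it was 1 to 9 genes with 1 library left out. Cd74 averaged 2.93 ± 0.548 FPKM in WT10M and 3.04 ± 0.876 FPKM in WT03M (SD, n = 5 each), and H2-Ab1 averaged 1.34 ± 0.299 FPKM in WT10M and 1.37 ± 0.210 FPKM in WT03M. H2-Eb1 averaged 1.43 ± 0.236 FPKM in WT10M and 1.29 ± 0.248 FPKM in WT03M. H2-Aa had the largest difference, 0.43 (95% interval -0.03 to 0.89, adjusted p = 0.770, limma), with 1.71 ± 0.540 FPKM in WT10M and 1.12 ± 0.262 FPKM in WT03M. Ciita differed by 0.08 between the WT ages (exact permutation p = 0.103) and by 0.06 between the TG ages (exact permutation p = 0.302). In the order of their group means, TG10M was highest for Cd74, H2-Aa, H2-Ab1 and H2-Eb1. For Cd74, H2-Ab1 and H2-Eb1 the 3 other groups did not differ beyond their SDs. For H2-Aa the other groups followed as WT10M (1.71 ± 0.540 FPKM), TG03M (1.48 ± 0.219) and WT03M (1.12 ± 0.262). The ranges of mean ± SD overlapped between neighbouring groups in that order, though the means of TG03M and WT03M were further apart than either SD.

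The difference of differences asks whether genotype mattered more at 10 than at 3 months, and no member passed that test. It was 1.03 for H2-Ab1 (SE 0.22, 95% interval 0.57 to 1.49, unadjusted p = 0.000156, adjusted p = 0.238), 0.93 for Cd74 (SE 0.25, adjusted p = 0.688), 0.68 for H2-Eb1 (SE 0.19, adjusted p = 0.724) and 0.34 for H2-Aa (SE 0.31, adjusted p = 0.972), all with limma. H2-Ab1 had the 9th smallest p of the 13722 genes in this test, in which 0.0364% of genes were called. For no member was the genotype difference shown to change with age at the adjusted threshold.

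**Figure D2:**
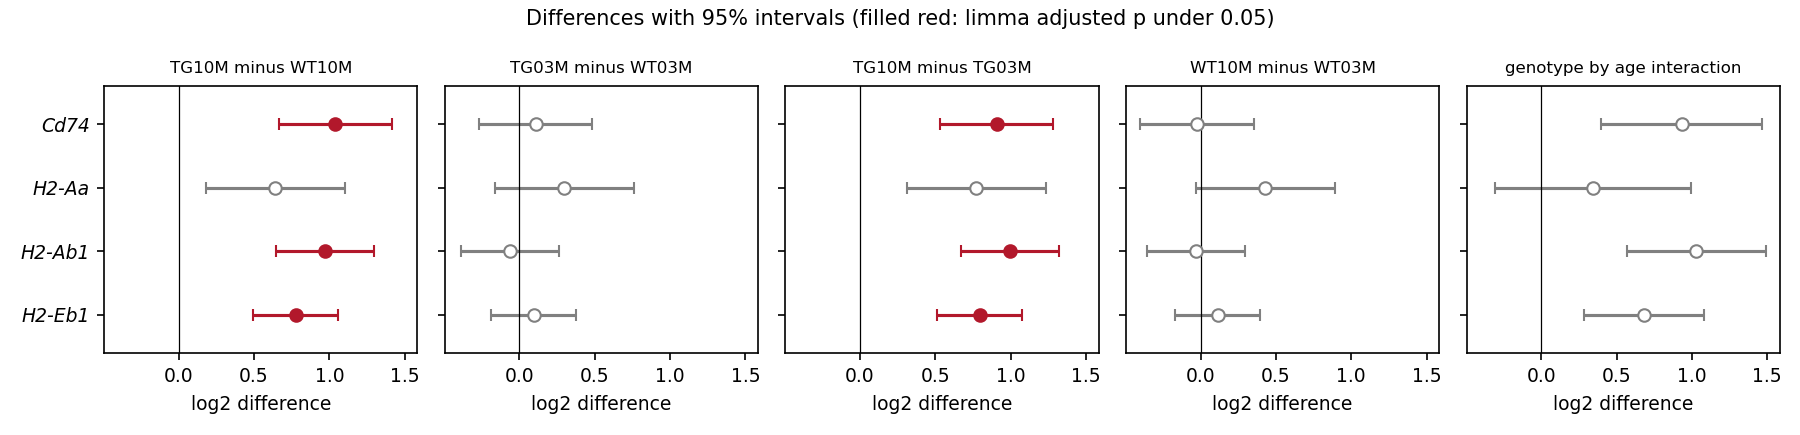
Differences of log2(FPKM + 0.5) (horizontal axis) of the 4 tested class II genes in 5 comparisons, with 95% intervals from limma. Filled red points have an adjusted p under 0.05, and they are those of Cd74, H2-Ab1 and H2-Eb1 in TG10M minus WT10M and in TG10M minus TG03M. In TG03M minus WT03M and in WT10M minus WT03M every interval includes 0.

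The table lists 3 transcripts of Cd74 (ENSMUSG00000024610, on chromosome 18). ENSMUST00000050487, with a coding length of 645 bases over 8 exons, made up 75.3% of the gene's FPKM, and ENSMUST00000097563, with a coding length of 837 bases over 9 exons, 24.2%. The long form of Cd74 is known for an added exon that encodes a thyroglobulin-like domain. The long form ENSMUST00000097563 averaged 1.68 ± 0.418 FPKM in TG10M, 0.791 ± 0.353 in WT10M, 0.737 ± 0.332 in TG03M and 0.632 ± 0.237 in WT03M (SD, n = 5 each). The short form ENSMUST00000050487 averaged 4.93 ± 1.36 FPKM in TG10M, 2.14 ± 0.386 in WT10M, 2.47 ± 0.35 in TG03M and 2.41 ± 0.741 in WT03M. Both forms thus had their highest mean in TG10M. The share of ENSMUST00000097563 in the gene was 20.7 to 27.8% in TG10M, 14.1 to 39.1% in WT10M, 14.3 to 32.9% in TG03M and 13.1 to 29.0% in WT03M, so the groups overlapped throughout. The split between forms rests on the authors' estimate from few fragments. H2-Ab1, H2-Eb1 and Ciita have 1 transcript each in the table, and 99.9% of H2-Aa lies on ENSMUST00000040655.

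Per length, the level of Cd74 was above that of each chain gene in all 20 libraries, with ratios of Cd74 to H2-Ab1 of 1.37 to 2.81 in TG10M, 1.80 to 2.38 in WT10M, 1.88 to 3.43 in TG03M and 1.43 to 2.56 in WT03M. The alpha and beta chains of I-A were near each other, with H2-Aa over H2-Ab1 at a median of 0.979 in TG10M, 1.20 in WT10M, 1.20 in TG03M and 0.752 in WT03M. Across the 20 libraries the members' log2 values moved together, with Pearson's r of 0.71 for Cd74 with H2-Aa, 0.86 for Cd74 with H2-Ab1 and 0.88 for Cd74 with H2-Eb1. With the group means taken off, r was 0.80 between H2-Aa and H2-Ab1, 0.67 between H2-Aa and H2-Eb1, and 0.54 between H2-Ab1 and H2-Eb1. For Cd74 it was then 0.36 with H2-Aa, 0.51 with H2-Ab1 and 0.59 with H2-Eb1. Without the TG10M libraries, r of the log2 values was 0.42, 0.59 and 0.32 for the chain pairs in the same order. For Cd74 it was 0.34 with H2-Aa, 0.53 with H2-Ab1 and 0.55 with H2-Eb1. These values share libraries and depth and are a description. The chain genes are polymorphic between the C57BL/6 and C3H parents, and what this does to the placing of reads was not tested.

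Of the genes that load class II, 1 rose at 10 months, beside 0.583% of all genes tested. The list has 12 symbols, of which 10 are in the table and 6 passed the filter. The median difference of those 6 was 0.19, beside 0.00 for all genes tested. Ctss, the protease cathepsin S that trims the invariant chain, averaged 95.8 ± 16.3 FPKM in TG10M and 62.0 ± 10.2 FPKM in WT10M (SD, n = 5 each) and rose by 0.62 (SE 0.12, adjusted p = 0.0235, limma). This call ended without TG10M replicates 1 or 4 or any of WT10M replicates 1 to 4 (highest adjusted p = 0.0885), and with the 2 groups fitted alone (adjusted p = 0.139). Ctss also rose with age in PS19 cortex, by 0.91 (adjusted p = 0.000539, limma), and was at 0.34 between the WT ages (adjusted p = 0.541, limma). Its difference of differences, 0.57, did not pass (adjusted p = 0.800, limma). H2-DMa and H2-DMb1, the chains of the exchange factor that frees the groove, were at 0.09 (6.38 ± 0.862 FPKM in TG10M and 5.99 ± 1.07 FPKM in WT10M) and 0.16 (1.93 ± 0.631 FPKM in TG10M and 1.62 ± 0.237 FPKM in WT10M). H2-DMb1 and H2-DMb2 are close copies, so the split of reads between them is uncertain. The proteases Ctsl, at 0.10, and Lgmn, at 0.22, and the lysosomal thiol reductase Ifi30, at 0.33, did not pass either. Of the 6 tested genes, 2 had an unadjusted p under 0.05 in limma. No share of all genes was taken at that unadjusted threshold, here or for the lists below, so such counts have no background. The count called was 2 without WT10M replicate 5 and also 2 without the 3 libraries that stood apart. In these fits 1600 and 326 of all 13722 genes were called, in that order.

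H2-Oa and H2-Ob, the chains of the factor that restrains H2-DM, lay under the filter. H2-Oa averaged 0.749 ± 0.296 FPKM in TG10M and 0.244 ± 0.157 FPKM in WT10M, with 0.291 ± 0.143 FPKM in TG03M and 0.431 ± 0.102 FPKM in WT03M (SD, n = 5 each). With the filter at 0.1 FPKM (15533 genes), H2-Oa differed at 10 months by 0.74 (SE 0.16, adjusted p = 0.0447, limma), and H2-Ob by 0.21 (adjusted p = 0.369). The H2-Oa groups overlapped, since WT10M replicate 5 (0.510 FPKM) lay above TG10M replicate 5 (0.389 FPKM). With age in PS19 cortex H2-Oa was at 0.65 under that filter and did not pass (adjusted p = 0.0659, limma). H2-DMb2 averaged 0.240 ± 0.115 FPKM in TG10M and 0.288 ± 0.147 FPKM in WT10M, and H2-Eb2, a second I-E beta gene, had at most 0.018 FPKM in any library and was listed at 0 in every TG10M library. The alpha chain gene of I-E, listed under the symbols H2-Ea and H2-Ea-ps, is not analysed here. Of 3 tested genes that turn over class II at the surface 0 were called in limma, and 0 had an unadjusted p under 0.05: Cd83 was at 0.22, and the ubiquitin ligases March8 and March1 were at 0.06 and 0.03.

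**Figure D3:**
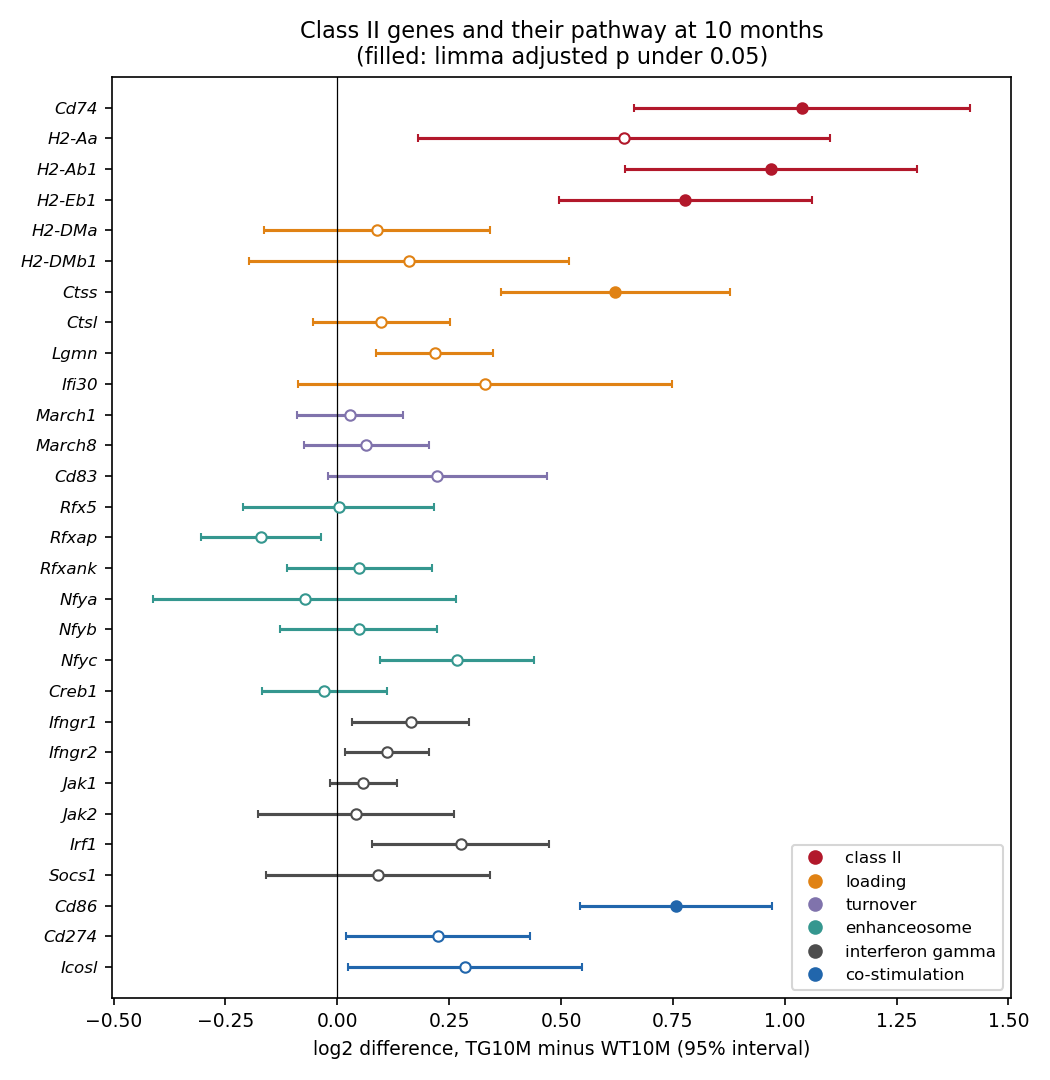
Differences of log2(FPKM + 0.5), TG10M minus WT10M (horizontal axis), with 95% intervals from limma for the tested class II genes and the genes that load, turn over, transcribe or accompany them. Filled points have an adjusted p under 0.05. They are Cd74, H2-Ab1, H2-Eb1, Ctss and Cd86, and the 7 genes of the enhanceosome lie between -0.17 and 0.27.

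The genes whose products bind class II promoters were called in neither direction at 10 months. Of 7 tested genes of RFX, NF-Y and CREB, 0 passed, beside 0.634% of all genes tested, and their median difference was 0.00, with 2 at an unadjusted limma p under 0.05. The largest were Nfyc, a subunit of NF-Y, at 0.27 (17.2 ± 1.65 FPKM in TG10M and 14.2 ± 1.22 FPKM in WT10M), and Rfxap, a subunit of RFX, at -0.17 (11.1 ± 0.97 FPKM in TG10M and 12.5 ± 0.928 FPKM in WT10M). Rfxank and Nfyb were both at 0.05. Interferon gamma is the classic inducer of Ciita. Of 7 tested genes of its pathway 0 passed in limma, with a median of 0.11 and 4 at an unadjusted p under 0.05. Irf1, a transcription factor that interferon gamma induces, was at 0.28 (adjusted p = 0.194, limma), and the receptor chains Ifngr1 and Ifngr2 were at 0.16 and 0.11. Ifng itself had 0.0408 FPKM in TG10M replicate 3 and was listed at 0 in every other library. Without WT10M replicate 5, 2 enhanceosome genes and 1 gene of the interferon gamma pathway were called, beside 1600 of all 13722 genes.

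Cd74 is also a receptor for the cytokine Mif. Mif averaged 315 ± 21.5 FPKM in TG10M and 281 ± 25.0 FPKM in WT10M, a difference of 0.17 (adjusted p = 0.174, limma). The related cytokine Ddt was at -0.24 and the co-receptors Ackr3 and Cd44 were at 0.15 and 0.14. Of 5 tested genes 0 passed in limma, with 2 at an unadjusted p under 0.05. Without WT10M replicate 5, 2 passed, beside 1600 of all 13722 genes. The list of co-stimulation had 1 rise among 3 tested genes, beside 0.583% of all genes tested. Cd86, which gives T cells the second signal beside class II, averaged 1.65 ± 0.281 FPKM in TG10M and 0.767 ± 0.115 FPKM in WT10M (SD, n = 5 each) and rose by 0.76 (SE 0.10, adjusted p = 0.000783, limma). This call held in every alternative fitted to gene values, including each library left out and the 2 groups fitted alone. Icosl and Cd274, the ligand of the inhibitory receptor PD-1, were at 0.29 and 0.23 and did not pass.

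Class I presentation was set beside class II. Of 9 tested genes 2 rose at 10 months, beside 0.583% of all genes tested, with a median of 0.38. With age in PS19 cortex 4 of the 9 rose, beside 0.641% of all genes tested. H2-D1, a class I heavy chain, averaged 34.6 ± 5.93 FPKM in TG10M and 21.4 ± 3.12 FPKM in WT10M (SD, n = 5 each) and rose by 0.68 (SE 0.11, adjusted p = 0.00410, limma). Psmb8, a subunit of the immunoproteasome, rose by 0.71 (SE 0.16, adjusted p = 0.0422, limma), with 5.49 ± 1.59 FPKM in TG10M and 3.10 ± 0.421 FPKM in WT10M. The call of Psmb8 ended without TG10M replicates 1, 3 or 5 or WT10M replicates 1 to 4 (highest adjusted p = 0.143), without the 3 libraries that stood apart (0.0782) and with the replicate number as a block (0.0651). With the 2 groups fitted alone, adjusted p was 0.0765 for H2-D1 and 0.150 for Psmb8. B2m, the light chain, was at 0.64 (adjusted p = 0.0835) and H2-K1 at 0.50 (adjusted p = 0.0940). H2-D1 and H2-K1 are close in sequence, so reads may be split between them. Without WT10M replicate 5, 5 of the class I genes were called, beside 1600 of all 13722 genes. It was 1 class I gene without the 3 libraries that stood apart, beside 326 of all genes.

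Most markers of microglia were also higher at 10 months in PS19 cortex, 9 of the 10 listed. The mean log2(FPKM + 0.5) of 10 markers was 3.96 ± 0.06 in TG10M and 3.67 ± 0.13 in WT10M (SD, n = 5 each), a difference of 0.28 (exact permutation p = 0.00794, the smallest possible). Their summed level was 220 to 263 FPKM in TG10M and 167 to 228 FPKM in WT10M. Of the 10 markers 1 was called in limma, beside 0.634% of all genes tested, and 7 had an unadjusted p under 0.05. The share of all genes under that unadjusted threshold was not taken, so the 7 have no background. The count called was 0 without TG10M replicates 1, 4 or 5 or any of WT10M replicates 1 to 4, and with the 2 groups fitted alone. Without WT10M replicate 5 the count of called markers was 6, and it was 3 without the 3 libraries that stood apart. Of all 13722 genes tested, 1600 and 326 were called in these fits, in that order. Fcrls was at 0.82 (adjusted p = 0.0613), the receptor kinase Csf1r at 0.28 (0.0743) and the fractalkine receptor Cx3cr1 at 0.21 (0.107). Sall1 went the other way, with 1.61, 2.22, 2.43, 2.56 and 1.75 FPKM in the TG10M libraries. It had 2.24, 2.54, 2.36, 3.09 and 1.46 FPKM in the WT10M libraries. With age in PS19 cortex 3 of the 10 markers rose, beside 0.641% of all genes tested.

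Class II RNA per microglia marker RNA was then compared, as log2(FPKM + 0.5) of a member minus the mean of the 10 markers in the same library. For H2-Ab1 it was -2.12 ± 0.34 in TG10M and -2.81 ± 0.31 in WT10M (SD, n = 5 each), a difference of 0.69 (exact permutation p = 0.00794). For H2-Eb1 it was -2.24 ± 0.22 in TG10M and -2.73 ± 0.23 in WT10M, a difference of 0.49 (exact permutation p = 0.00794). For Cd74 it was -1.16 ± 0.36 in TG10M and -1.91 ± 0.35 in WT10M, a difference of 0.76 (exact permutation p = 0.0317). In H2-Ab1 and H2-Eb1 all TG10M libraries lay above all WT10M libraries, while for Cd74 TG10M replicate 5 fell among WT10M. H2-Aa differed by 0.36 (exact permutation p = 0.270). Ciita differed by -0.33 (exact permutation p = 0.0159), a value that moves with the markers, since its own level is small beside the pseudocount. These are 5 tests at 10 months and their p-values are not adjusted. Without TG10M replicate 1 the difference for Cd74 was 0.67 (exact permutation p = 0.0556). The part that the higher microglia markers play in the class II differences was not tested further.

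**Figure D4:**
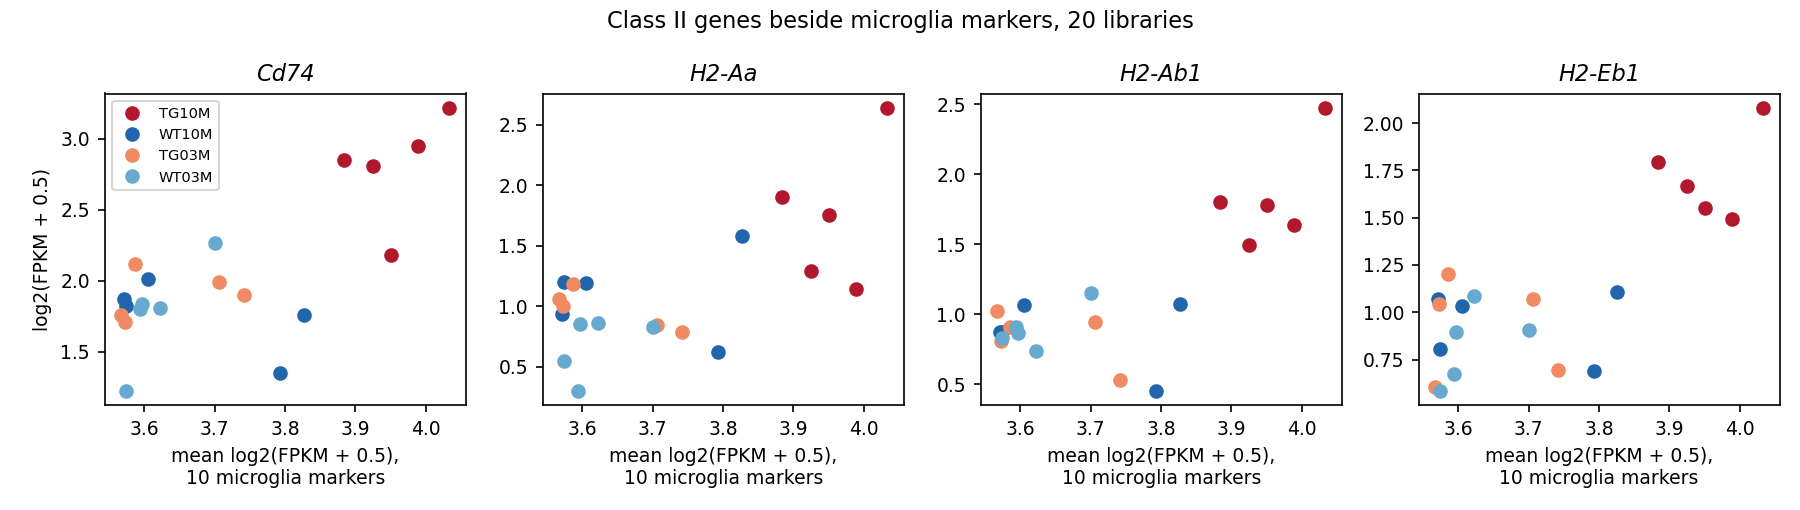
Log2(FPKM + 0.5) of 4 class II genes (vertical axes) against the mean log2(FPKM + 0.5) of 10 microglia markers (horizontal axes), 1 point per library, coloured by TG10M, WT10M, TG03M and WT03M. The TG10M libraries lie to the right, at 3.88 to 4.03, and the WT10M libraries at 3.57 to 3.83.

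Of the markers of other cells known for class II that passed the filter, none was called in limma at 10 months, beside 0.634% of all genes tested. Of 9 markers of border macrophages 6 were tested and 0 passed, 3 with an unadjusted p under 0.05, with a median of 0.27 and a summed level of 8.52 to 12.3 FPKM in TG10M and 6.40 to 9.01 FPKM in WT10M. Mrc1, the mannose receptor, was at 0.33 (adjusted p = 0.147, limma) and the chemokine Pf4 at 0.65 (adjusted p = 0.175), while F13a1 and Cbr2 were at 0.29 and 0.25. Without WT10M replicate 5, 1 of the 6 passed, beside 1600 of all 13722 genes. Of 9 markers of dendritic cells 5 were tested and 0 passed, 3 with an unadjusted p under 0.05, with a summed level of 11.97 to 14.1 FPKM in TG10M and 10.3 to 12.6 FPKM in WT10M. The transcription factor Irf8, which microglia also express, was at 0.34, the lectin gene Cd209a at 0.40, the cytokine receptor Flt3 at 0.14 and Zbtb46 at -0.19. With age in PS19 cortex 1 of these 5 tested markers rose, beside 0.641% of all genes tested. It was Cd209a, at 0.91 (adjusted p = 0.0119, limma), which was at 0.57 between the WT ages (adjusted p = 0.347, limma). Below the filter the markers of dendritic cells went different ways. Itgax, the integrin CD11c of dendritic cells and of activated microglia, had 0.423 to 1.56 FPKM in TG10M and 0.0461 to 0.171 FPKM in WT10M, with 0.00833 to 0.188 in TG03M and 0 to 0.168 in WT03M, so every TG10M library was above every other library. Its level is set by TG10M alone and it was named after its values were seen, so no test is given. Xcr1 and Clec9a, also named after their values were seen, averaged 0.0123 and 0.0557 FPKM in TG10M and 0.0224 and 0.0534 FPKM in WT10M. B cell markers were near 0, with 0 of 6 genes tested and summed levels of 0.217 to 0.347 FPKM in TG10M and 0.108 to 0.365 FPKM in WT10M. Of 7 T cell markers only Cd4 was tested, at -0.53 (adjusted p = 0.303, limma), with an unadjusted p under 0.05. The T cell receptor genes Cd3d, Cd3e and Cd3g averaged at most 0.0607 FPKM in TG10M and 0.0301 FPKM in WT10M. Of monocyte and granulocyte, choroid plexus, blood and neuron markers, 0 of 4, 0 of 5, 0 of 5 and 0 of 6 tested genes passed at 10 months, with 1, 0, 0 and 2 at an unadjusted p under 0.05. Ttr, a marker of choroid plexus, ran from 4.79 to 996 FPKM over the 20 libraries, and its part in the class II values was not tested.

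Over the 20 libraries, the genes whose log2 values were most like the mean of the 4 tested members were Cst7 (Pearson's r 0.90), Psmb8 (0.88), Irgm1 (0.88), H2-D1 (0.87), 2810459M11Rik (0.87), Cyba (0.86), Vasp (0.85), Itgb5 (0.84), Cd86 (0.84) and Lyz2 (0.83). Cst7, a cystatin, averaged 2.63 ± 0.994 FPKM in TG10M, 0.156 ± 0.101 in WT10M, 0.0580 ± 0.0393 in TG03M and 0.0883 ± 0.0646 in WT03M (SD, n = 5 each). The lysozyme gene Lyz2 averaged 15.8 ± 1.47 FPKM in TG10M, 7.94 ± 1.35 in WT10M, 6.46 ± 0.844 in TG03M and 6.93 ± 1.79 in WT03M. Cyba, a subunit of the NADPH oxidase, averaged 14.5 ± 2.31 FPKM in TG10M, 8.40 ± 0.521 in WT10M, 7.95 ± 0.484 in TG03M and 8.82 ± 1.19 in WT03M. All 3 had their highest mean in TG10M, which the choice by likeness to the members favours, and Cst7 passed the filter on low values only through TG10M. With the group means taken off, other genes came first, led by Commd9 (r 0.73), Ebp (0.68) and Foxd1 (0.68). These correlations share libraries and depth and are a description.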

How the data were processed

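RNA of 20 cortex libraries was measured, 5 in each of 4 groups named by genotype and age in the labels. The authors deposited FPKM, with 1 row for each transcript. Per the submitters' processing notes, the build was GRCm38 (mm10) and the tools include CASAVA, TopHat2, Cuffdiff and DESeq2, while their versions, their settings and any use of strand are not given in the sources. Per the labels, RNA with a RIN above 7 was used. The other deposited tables were not used here.

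FPKM of 50660 transcripts were summed to 21949 genes, and 27 symbols that a spreadsheet had turned into dates were restored by gene ID. Depth was estimated from the step of 1 fragment in 1817 genes with 1 transcript of over 4000 bases. Genes with a mean of at least 0.5 FPKM were tested on log2(FPKM + 0.5) with limma 3.58.1 in R 4.3.3 (lmFit, contrasts, eBayes with a trend), two-sided, in 1 fit of the 4 groups. A call needs an adjusted p (Benjamini-Hochberg) under 0.05, and the libraries were not rescaled. Counts at an unadjusted p under 0.05 have no share of all genes beside them and are a description. Members under the filter and ratios to microglia markers had exact permutation tests over libraries. The fit was tested on simulated data with known changes. Coordinates are from GENCODE M21.

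The text names the 5 members, all genes of the loading list, up to 4 genes of each other list with the smallest p at 10 months, and the 10 genes most like the members, but 2 listed genes are not reported here by name. The T cell, dendritic cell and B cell genes named for being near 0, Cd4, Ifng, Prnp, Hsp90aa1, Ttr, Itgax and Sall1 fall outside this rule and were chosen after their values were seen. The members were taken by symbol, and they, the lists and the alternatives were chosen with earlier results of these data known. The alternatives were other pseudocounts, filters and scalings, a block for the replicate number, a fit of the compared groups only, robust variances, array weights, transcript values, and leaving out libraries.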

Additional observations from a re-analysis of the deposited data

Results flagged for a closer look

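The check asked, in each group of 5 libraries, whether the highest or the lowest FPKM of a member or listed gene lay far from the other 4. It flagged 17 of 186 groups, and chance flags about 1 in 20. Among the members, H2-Ab1 was flagged in TG10M replicate 1, with 5.05 FPKM against 2.32 to 2.98 in the 4 other libraries. In the same library H2-D1 had 45.1 FPKM against 31.1 to 33.2, H2-K1 had 32.3 against 21.5 to 22.5 and Cd274 had 1.05 against 0.696 to 0.782. WT10M replicate 5 was high in H2-DMa (7.87 FPKM against 5.23 to 5.82), H2-Ob (0.244), Cd83 (10.2) and Ifngr1 (10.1), and low in Rfxap (10.9 against 12.8 to 13.2). Both libraries belong to the 3 that stood apart on the first principal component.

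In the other TG10M libraries, H2-DMb2 was low in replicate 2 (0.0383 FPKM), Irf1 in replicate 4 (3.76) and Irf8 in replicate 5 (1.98). In the other WT10M libraries, Cbr2 was high in replicate 2 (1.59 FPKM) and Cd209a low in replicate 3 (0.638). In TG03M replicate 4, H2-Eb2 had 0.0175 FPKM against 0 in the 4 other libraries. In WT03M replicate 2, March8 (26.2 FPKM) and Csf1r (21.2) were high. The genotype difference at 10 months minus that at 3 months passed for 0 of the 4 tested members in limma, and 3 of them had an unadjusted p under 0.05.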

How the results depend on the processing

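Each check here is 1 result of the members, or their count called, in 1 setting, and many checks share a fit. With 1 library left out, 377 checks were kept, which for a difference means the same direction and the same side of the threshold. A count of members that changed little was also taken as kept. With 1 library left out, 3 to 4 members were called at 10 months and 2 to 3 between the TG ages. Between the TG ages it was also 2 to 3 under other settings. Of the rest, 4 no longer passed, 2 newly passed and 7 changed sign. Under other settings 345 checks were kept in the same sense, 6 no longer passed, 1 newly passed, 1 count moved further than that and 1 changed sign. The exceptions follow, and their cause was not tested unless the setting itself shows it. With only the compared groups fitted, the differences at 10 months of Cd74 (1.04, adjusted p = 0.0730), H2-Ab1 (0.97, 0.0961) and H2-Eb1 (0.78, 0.0508) no longer passed, so 0 members were called. With age in PS19 cortex, Cd74 was at 0.84 (adjusted p = 0.0684) with transcripts in place of genes, and at 0.80 to 1.06 with 1 library left out. Differences near 0 changed sign: Cd74 between the WT ages was at 0.044 with array weights and at -0.17 to 0.10 with 1 library left out, where H2-Ab1 was at -0.084 to 0.071. Between the genotypes at 3 months, with 1 library left out, H2-Ab1 was at -0.10 to 0.019 and Cd74 at -0.034 to 0.23. Ciita between the WT ages was at 0.10 without the set of 3 libraries apart (exact permutation p = 0.0397) and at 0.057 to 0.11 with 1 left out. H2-Aa at 10 months was at 0.42 to 0.79 with 1 library left out (adjusted p = 0.0358 to 0.455). Per microglia marker RNA, Cd74 was at 0.62 to 0.91 with 1 library left out, and without the set apart H2-Ab1 was at 0.53 and H2-Eb1 at 0.46 (both exact permutation p = 0.0571, the smallest that 3 against 4 libraries can give).

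The count of all genes called at 10 months was 87, but 28 to 1600 with 1 library left out (1600 without WT10M replicate 5), 326 without the set apart, 945 with array weights, 43 with transcripts and 16 with the compared groups alone. Between the genotypes at 3 months it was 41, but 473 without the set apart, 261 with array weights, 221 with the compared groups alone and 22 with transcripts or with no filter on low values. Between the WT ages it was 9, but 44 with array weights, 5 with the replicate number as a block and 1 with transcripts or with the compared groups alone. Between the TG ages it was 116, but 56 to 154 with 1 library left out, 73 without the set apart, 52 with the compared groups alone and 48 with transcripts. Among dendritic cell markers, 1 was called with array weights and 0 in the other settings with a filter of at least 0.5 FPKM. Lower filters admit Itgax, whose level is set by TG10M alone, so no count is given for them. With the replicate number as a block, 3 members were called at 10 months, as without it, with an adjusted p of 0.0142 for Cd74, 0.00242 for H2-Ab1 and 0.0124 for H2-Eb1, and the block changed no other call of a member. The numbers did not pair the samples: over 30 pairs with the same number the median correlation of deviations was -0.03, and 5 of 20 libraries correlated best with their own number. Depth limits Ciita most, with 11.4 to 28.6 fragments per library.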
